A study of Bos taurus with 9 samples.

Results

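The miRNAs described here come from the imprinted DLK1-DIO3 region, one of the longest miRNA clusters of placental mammals. A list of 54 bovine miRNA names from this region was matched to the names of the 515 mature miRNAs measured in rectal tissue, and 51 of the 54 had an entry. The others, bta-miR-329b, bta-miR-380-5p and bta-miR-411b, were not analysed here. Members were matched by name alone. As a check of the label, all 54 names were matched to RefSeq hairpin genes (assembly ARS-UCD2.0), and their 51 hairpins lay between DLK1 and DIO3. In this order, 8 hairpins formed a first group, from MIR493 to MIR370, of which 5 (MIR431, MIR433, MIR127, MIR432 and MIR136) lay within RTL1. The other 43 hairpins formed a second group, from MIR379 to MIR656.

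The DLK1-DIO3 region is imprinted: the protein-coding genes DLK1, RTL1 and DIO3 are expressed mainly from the chromosome of paternal origin, whereas the long noncoding RNAs MEG3 and MEG8, the RTL1 antisense transcript and the miRNAs are expressed from the chromosome of maternal origin. In mouse, miR-127 and miR-136 lie opposite the Rtl1 gene, pair with its mRNA and direct its cleavage, and Rtl1 itself is needed in the placenta. These miRNAs are best known from embryo, placenta, brain and muscle, and in rat neurons the group that begins with miR-379 is transcribed with neuronal activity.

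Small RNA was sequenced from 9 feedlot steers of British x Continental breeding, 1 library per animal, to compare super-shedders of Escherichia coli O157 with non-shedders. The 5 super-shedders (SS, steers 274, 287, 294, 299 and 310) each passed over 10000 colony-forming units of this bacterium per g of feces, whereas the 4 non-shedders (NS, steers 108, 152, 165 and 242) tested negative. All animals were on the same type of barley-based finishing diet, and SS were identified days before slaughter and had their feces sampled again on the day of slaughter or the day before. Per the paper, not all SS still passed over 10000 colony-forming units per g by then. Only steer 310 was given a count, and the other SS were recorded as positive for the bacterium. Each library represents whole rectal wall, 2 pieces of 2 square cm from 3 to 5 cm above the recto-anal junction, and thus a mixture of epithelium, smooth muscle, connective tissue, nerve and blood cells.

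The smallest library (NS steer 108) held 650726 reads and the largest (SS steer 310) 6314556, 9.70 times as many, and 1 read was worth 0.158 to 1.54 CPM (reads scaled to a common library total). A value of 0 allowed up to 3 reads, which was 0.475 to 4.61 CPM. One miRNA of smooth muscle, bta-miR-143, took 22.1% to 73.1% of the reads of a library, which leaves a different share of each library to all other miRNAs together. Values were also rescaled with TMM factors, which set the bulk of miRNAs level between libraries.

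The 51 miRNAs held 118279 reads over the 9 libraries. Their share of the library was 0.749%, 0.565%, 0.425% and 1.18% in NS steers 108, 152, 165 and 242. In SS steers 274, 287, 294, 299 and 310 it was 0.450%, 0.559%, 0.350%, 0.593% and 0.367%. The share was above every SS library in NS steers 242 and 108, while NS steers 152 and 165 lay within the range of SS. The mean of SS was 0.464% ± 0.110 (SD, n = 5). That of NS was 0.731% ± 0.330 (SD, n = 4), and 0.580% ± 0.162 without steer 242 (SD, n = 3). With bta-miR-143 taken out of the library total, the means were 1.20% in SS and 1.37% in NS, and the groups overlapped (0.449% to 1.71% in SS, 1.14% to 1.70% in NS). With bta-miR-127, the most abundant miRNA of the cluster, left out of the sum, the shares were 0.216%, 0.196%, 0.153% and 0.443% in NS and 0.121%, 0.124%, 0.0932%, 0.150% and 0.0947% in SS. On this sum every NS library was above every SS library, by a narrow gap from 0.150% to 0.153%. It is a share of the whole library, a scale on which most miRNAs were lower in SS (216 of the 245 tested, 88.2%). With bta-miR-143 also taken out of the library total, the gap did not hold. SS steer 274, where bta-miR-143 took 73.1% of the reads, then lay above NS steer 152, where it took 51.5%. For the share of all 51 miRNAs, counting error was small beside the range between libraries. Its 95% Clopper-Pearson interval ran from 1.16% to 1.21% in NS steer 242 and from 0.340% to 0.359% in SS steer 294. No interval was computed for the sum without bta-miR-127, so its narrow gap was not set against counting error.

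The reads were spread very unevenly along the locus. From the RTL1 group, bta-miR-127 alone accounted for 84830 reads, or 71.7% of the reads of the cluster. From the second group, bta-miR-411a accounted for 24405 reads, or 20.6%. The next were bta-miR-381 with 1415 reads, bta-miR-379 with 1043 and bta-miR-410 with 1012. Each read spans a whole mature miRNA, so these read numbers are set side by side without a length correction. How well each miRNA is captured in a library was not measured. Differences in reads between miRNAs, here and below, are therefore not measures of their relative amounts in the tissue. In all, 16 of the 51 miRNAs reached 5 CPM in at least 4 libraries and were tested, which is 31.4% of the cluster against 47.6% of all miRNAs in the data. Of the 51, 26 were detected in every library, against 292 of all 515.

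**Figure D1:**
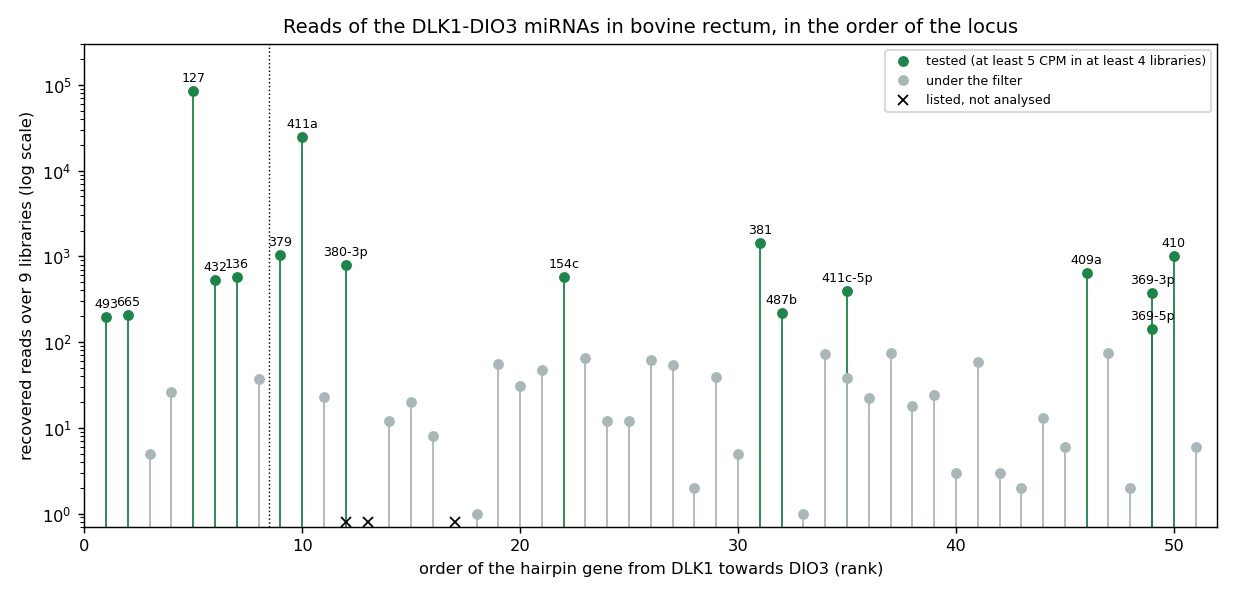
Reads of each of the 51 miRNAs summed over the 9 libraries (y axis, log scale) against the order of its hairpin between DLK1 and DIO3 (x axis, rank from 1 to 51, not to scale in bases). Green marks the 16 tested miRNAs, grey those under the filter and crosses the 3 not analysed, the dotted line separates the 2 groups of hairpins, and bta-miR-127 and bta-miR-411a, with 84830 and 24405 reads, stand far above all others.

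Some neighbouring hairpins differed widely in read number and others did not. The first hairpins of the locus gave 197 reads (bta-miR-493) and 209 reads (bta-miR-665). MIR379 and MIR411A are next to each other in the RefSeq order, but bta-miR-411a had 14.4 to 132 times as many reads as bta-miR-379 in the same library. Next to MIR127 within RTL1, bta-miR-432 had 525 reads and bta-miR-136 had 578, whereas bta-miR-433 had 26 and bta-miR-431 had 5. The last hairpins of the locus showed the same contrast, with 1012 reads for bta-miR-410 beside 6 for bta-miR-656 and 2 for bta-miR-412.

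A total of 35 miRNAs stayed under the filter, with 1 to 75 reads each and 934 reads together, or 0.790% of the reads of the cluster. Of these, 12 had fewer than 10 reads over all libraries, and 10 were seen in every library. The highest mean values were those of bta-miR-655 (4.00 CPM), bta-miR-154b (3.82 CPM), bta-miR-376b (3.72 CPM), bta-miR-382 (3.62 CPM) and bta-miR-654 (3.57 CPM). For example, bta-miR-134, which in rat acts on dendritic spines, had 18 reads in all. Without a filter, 43 of all 51 had a lower mean log2 value in SS, beside 385 of 515 (74.8%), and 0 of the 51 were called in limma, beside 1 of 515 (0.194%). Among those under the filter, mean CPM was lower in SS than in NS for 30 of the 35, against 166 of all 270 miRNAs under the filter. Summed over the 35, NS steers 108, 152, 165 and 242 had 61.5, 46.7, 39.7 and 152 CPM, and SS steers 274, 287, 294, 299 and 310 had 30.2, 62.7, 39.7, 33.8 and 17.1 CPM. NS steer 242 again stood highest, and the rest of both groups overlapped.

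The number of cluster miRNAs detected was 36 to 43 in the NS libraries and 37 to 43 in the SS libraries (NS 40.0 ± 3.16, SD, n = 4, and SS 40.6 ± 2.51, SD, n = 5). At the depth of the smallest library, 30.3 to 40.4 would be expected in NS and 24.0 to 34.3 in SS.

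Close relatives within the cluster could not be separated with certainty, because how reads that match several miRNAs were assigned is not stated. This concerns bta-miR-376a to bta-miR-376e (145 reads together), bta-miR-154a to bta-miR-154c (634 reads), bta-miR-487a and bta-miR-487b (243 reads), and bta-miR-411a with bta-miR-411c-5p (24800 reads). In human and mouse, miR-376 transcripts are also edited from A to I. The hairpins MIR409A and MIR409B have the same start and end in RefSeq, so their order relative to each other is arbitrary, and how their reads were assigned is not stated either.

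Of the 16 tested miRNAs, 14 had a lower mean log2 value in SS than in NS, but so did 216 of the 245 miRNAs tested in all (88.2%). None of the 16 was called at an adjusted p under 0.1 with a log2 difference above 1 in size, and none of the 245 was (0%; limma on log2(CPM + 1), Benjamini-Hochberg over 245). At an unadjusted p under 0.05, 7 of the 16 were lower in SS, beside 39 of 245 (15.9%), and 0 of the 16 were higher, beside 1 of 245 (0.408%). The 7 were bta-miR-411a, bta-miR-493, bta-miR-665, bta-miR-411c-5p, bta-miR-487b, bta-miR-369-5p and bta-miR-380-3p, each with an adjusted p of 0.297 in limma. Of these, bta-miR-665 and bta-miR-369-5p would not have passed the filter on the SS libraries alone. In 3 of the 16, bta-miR-369-5p among them, every SS library was below every NS library, beside 16 of 245 (6.53%). The count tests on the recovered reads called 0 of the 16 in edgeR's quasi-likelihood test (0 of 245), 0 in edgeR's exact test (1 of 245, 0.408%) and 0 in DESeq2 (9 of 245, 3.67%). In each of these tests 11 of the 16 were lower in SS, beside 48.2%, 48.2% and 47.8% of the 245. At an unadjusted p under 0.05 the quasi-likelihood test had 1 of the 16 lower (4.9% of 245) and 0 higher (5.71%), the exact test 0 lower (4.08%) and 0 higher (6.12%), and DESeq2 1 lower (6.12%) and 1 higher (7.76%).

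The median log2 difference of the 16 was -1.11, beside -0.70 for all 245, so that the 16 lay 0.41 below the median miRNA (relative difference -0.41), and 12 of the 16 were below it. This rested on the 16 that passed the filter: without a filter the median of all 51 was -0.44 beside -0.39 for all 515 (relative difference -0.05), with 30 of 51 below the median miRNA, and at a filter of 1 CPM the relative difference of 34 was -0.19. With TMM factors, which moved the median of all 245 from -0.70 to -0.04, the 16 had a median of -0.46 (relative difference -0.41) and 12 of 16 were lower in SS, beside 51.8% of the 245. After this rescaling 1 of the 16 was lower at an unadjusted p under 0.05 (13 of 245, 5.31%), 1 was higher (9 of 245, 3.67%), and none had groups that did not overlap (11 of 245 with SS below NS, 4.49%). A single library weighed on these values: without NS steer 242 the median was -0.69 (relative difference -0.17) and 1 of the 16 was lower at an unadjusted p under 0.05. Without SS steer 310 that count was also 1, and without SS steer 294 the relative difference was -0.15.

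By position, all 5 tested miRNAs of the RTL1 group had a lower mean log2 value in SS, with a median of -1.13. In the second group 9 of 11 did, with a median of -1.10. Without NS steer 242 these medians were -0.54 and -0.70. In the count tests 3 of 5 and 8 of 11 were lower, with medians of -0.63 and -0.38 in edgeR's quasi-likelihood test and -0.62 and -0.37 in DESeq2.

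**Figure D2:**
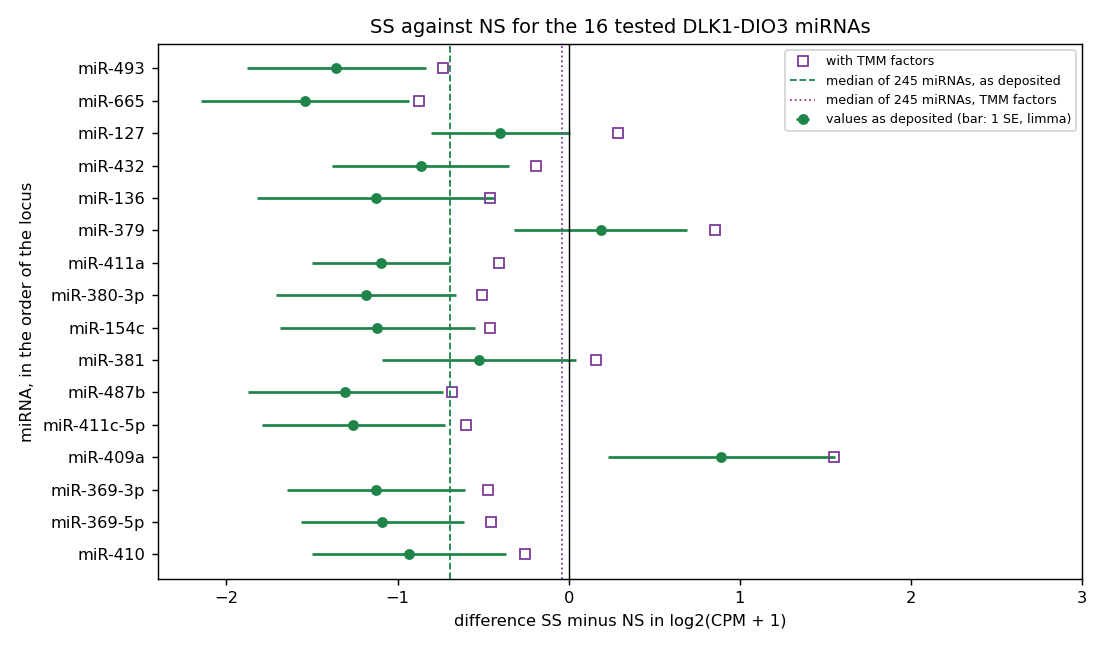
Difference between SS and NS in log2(CPM + 1) (x axis) for the 16 tested miRNAs in the order of the locus (y axis). Filled points are the values as deposited with 1 SE from limma, open squares the values with TMM factors, and the vertical lines the medians of all 245 miRNAs, -0.70 as deposited and -0.04 with TMM factors; bta-miR-379 and bta-miR-409a lie right of 0 on both scales, and bta-miR-127 and bta-miR-381 do so with TMM factors only.

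In the RTL1 group, bta-miR-127 stood at 5333, 3688, 2727 and 7411 CPM in NS steers 108, 152, 165 and 242, and at 3285, 4345, 2564, 4433 and 2725 CPM in SS steers 274, 287, 294, 299 and 310. The groups overlapped, with 3 SS libraries inside the NS range. The log2 difference was -0.40 (SE 0.41, adjusted p = 0.547 in limma), smaller than the spread between animals, and it turned to 0.29 with TMM factors. Steers are given in this order below. TMM factors also brought 12 of the other differences nearer to 0, to between -0.87 (bta-miR-665) and -0.19 (bta-miR-432).

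For bta-miR-136, which like miR-127 is antisense to RTL1, the NS libraries had 40.0, 19.3, 18.6 and 162 CPM and the SS libraries 18.5, 45.7, 15.5, 14.1 and 8.55 CPM. NS steer 242 and SS steer 287 stood above the rest of their groups. The log2 difference was -1.13 (SE 0.70, adjusted p = 0.358 in limma), and -0.45 without NS steer 242. For bta-miR-432, from the same stretch, the values were 26.1, 31.7, 19.9 and 63.6 CPM in NS and 19.4, 19.6, 8.07, 32.3 and 14.6 CPM in SS. All but 1 of the SS libraries were below the lowest NS library, with a log2 difference of -0.86 (SE 0.52, adjusted p = 0.358 in limma). It was -0.54 without NS steer 242, and the sign turned in the count tests, to 0.038 in both edgeR tests and 0.031 in DESeq2.

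The first hairpins of the locus, on the MEG3 side of RTL1, encode bta-miR-493 and bta-miR-665. Abundance of bta-miR-493 was 18.4, 13.9, 8.20 and 40.1 CPM in NS and 5.86, 11.1, 7.40, 5.01 and 3.33 CPM in SS. Only SS steer 287 reached into the NS range, and the log2 difference was -1.36 (SE 0.52, adjusted p = 0.297 in limma). For bta-miR-665 the NS libraries had 15.4, 13.9, 6.91 and 50.2 CPM and the SS libraries 10.4, 4.43, 2.02, 8.77 and 3.64 CPM. This was the lowest log2 difference of the 16, -1.54 (SE 0.61, adjusted p = 0.297 in limma), with 2 SS libraries inside the NS range. Both rest on few reads, 197 for bta-miR-493 and 209 for bta-miR-665 over all libraries.

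In the second group, bta-miR-411a had 1587, 1528, 1183 and 3092 CPM in NS and 903, 749, 649, 1093 and 716 CPM in SS. Every SS library was below every NS library, and the means were 822 ± 178 CPM (SD, n = 5) and 1848 ± 848 CPM (SD, n = 4). The log2 difference was -1.10 (SE 0.40, adjusted p = 0.297 in limma), the smallest unadjusted p among the 16, and the groups overlapped with TMM factors, where it was -0.41. Without NS steer 242 it was -0.82. The related bta-miR-411c-5p had 15.4, 31.7, 22.5 and 66.9 CPM in NS and 11.5, 21.4, 8.07, 15.7 and 6.81 CPM in SS. Here 2 SS libraries lay inside the NS range, and the log2 difference was -1.26 (SE 0.53, adjusted p = 0.297 in limma).

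The values of bta-miR-487b were 12.3, 9.12, 14.7 and 56.9 CPM in NS and 7.66, 7.01, 8.75, 8.46 and 2.85 CPM in SS. The groups did not overlap, but the gap was narrow, from 8.75 to 9.12 CPM, less than 1 read of NS steer 152 (0.536 CPM). The log2 difference was -1.31 (SE 0.57, adjusted p = 0.297 in limma), and -0.76 without NS steer 242.

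Both arms of the miR-369 hairpin were tested. In human cells miR-369-3p is known to raise translation of the TNF mRNA when cells leave the cell cycle. It had 21.5, 21.5, 18.6 and 70.3 CPM in NS and 9.69, 23.6, 12.1, 12.2 and 8.08 CPM in SS. SS steer 287 lay inside the NS range and the other SS libraries below it, with a log2 difference of -1.13 (SE 0.52, adjusted p = 0.305 in limma), and -0.69 without NS steer 242. The other arm, bta-miR-369-5p, had 13.8, 6.44, 6.04 and 22.3 CPM in NS and 5.86, 5.90, 2.69, 4.39 and 4.12 CPM in SS. These groups did not overlap, by a gap from 5.90 to 6.04 CPM that is less than 1 read of NS steer 165 (0.432 CPM), and the log2 difference was -1.09 (SE 0.48, adjusted p = 0.297 in limma).

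**Figure D3:**
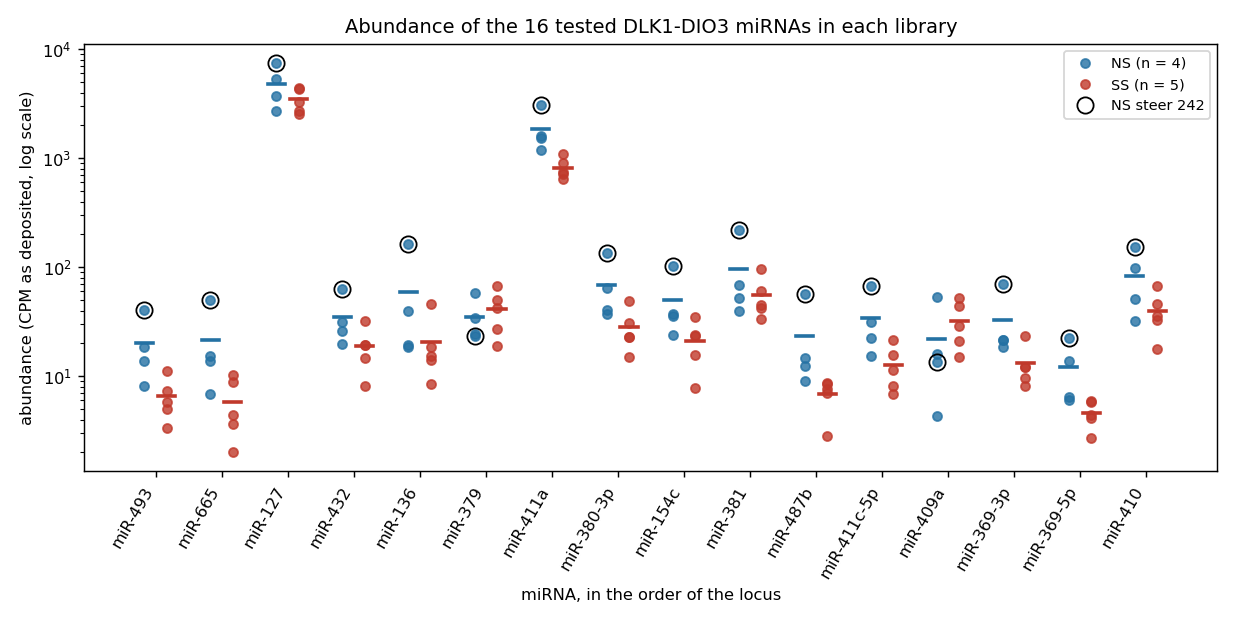
CPM of the tested miRNAs in each library (y axis, log scale), with SS and NS animals in separate colours bars at the group means, a ring around NS steer 242 and miRNAs in the order of the locus (x axis). The 4 NS libraries lie above all 5 SS libraries for bta-miR-411a, bta-miR-487b and bta-miR-369-5p, and NS steer 242 is the highest library for 14 of the 16.

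Abundance of bta-miR-380-3p was 64.5, 37.6, 40.6 and 135 CPM in NS and 23.0, 49.1, 22.9, 30.7 and 15.0 CPM in SS, and SS steer 287 again lay inside the NS range. The log2 difference was -1.18 (SE 0.53, adjusted p = 0.297 in limma). For bta-miR-154c the NS libraries had 36.9, 35.4, 23.7 and 104 CPM and the SS libraries 23.9, 35.0, 23.5, 15.7 and 7.76 CPM. The groups overlapped in 2 SS libraries, and the log2 difference was -1.12 (SE 0.57, adjusted p = 0.341 in limma), and -0.70 without NS steer 242.

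The values of bta-miR-410 were 98.4, 51.0, 32.4 and 153 CPM in NS and 33.1, 66.8, 35.7, 46.4 and 17.7 CPM in SS. All but SS steer 310 lay inside the NS range, and the log2 difference was -0.93 (SE 0.57, adjusted p = 0.358 in limma), and -0.57 without NS steer 242. For bta-miR-381 the NS libraries had 69.2, 39.7, 52.2 and 222 CPM and the SS libraries 45.5, 96.7, 33.6, 60.5 and 42.6 CPM. Apart from NS steer 242, all NS libraries lay within the range of SS. The log2 difference of -0.52 (SE 0.57, adjusted p = 0.568 in limma) was -0.01 without that steer and 0.16 with TMM factors.

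The mean log2 value of bta-miR-379 and bta-miR-409a was higher in SS, unlike that of the other 14. The first of the long group, bta-miR-379, had 24.6, 57.9, 34.5 and 23.4 CPM in NS and 42.6, 27.3, 18.8, 67.0 and 49.6 CPM in SS. The groups overlapped widely, and the log2 difference of 0.19 (SE 0.51, adjusted p = 0.817 in limma) was -0.02 without SS steer 299. Abundance of bta-miR-409a was 53.8, 16.1, 4.32 and 13.4 CPM in NS and 21.2, 15.1, 44.4, 52.0 and 29.0 CPM in SS. NS steer 108 had the highest value of all and the other NS libraries were near or below the lowest SS library. The log2 difference was 0.89 (SE 0.66, adjusted p = 0.446 in limma), 1.47 without NS steer 108, 0.35 without NS steer 165 and 1.55 with TMM factors, where it was the 1 miRNA of the 16 higher at an unadjusted p under 0.05. Near it in the locus, bta-miR-410 had a difference of opposite sign, and the ratio of bta-miR-409a to bta-miR-410 reads was 0.0876 to 0.547 in NS and 0.227 to 1.63 in SS, with 1 SS library inside the NS range.

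The make-up of the cluster within a library does not depend on how the library was scaled. The share of bta-miR-127 in the reads of the cluster was 71.2%, 65.3%, 64.1% and 62.6% in NS and 73.1%, 77.8%, 73.4%, 74.7% and 74.2% in SS. The share of bta-miR-411a was 21.2%, 27.1%, 27.8% and 26.1% in NS and 20.1%, 13.4%, 18.5%, 18.4% and 19.5% in SS. For both miRNAs the groups did not overlap: the mean of bta-miR-127 was 74.6% ± 1.89 (SD, n = 5) for SS against 65.8% ± 3.75 (SD, n = 4) for NS, and that of bta-miR-411a was 18.0% ± 2.66 (SD, n = 5) for SS against 25.5% ± 2.99 (SD, n = 4) for NS. NS steer 108 was nearest to SS in both shares. Together both took 88.7% to 93.7% of the reads of the cluster, so that a higher share of one goes with a lower share of the other.

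**Figure D4:**
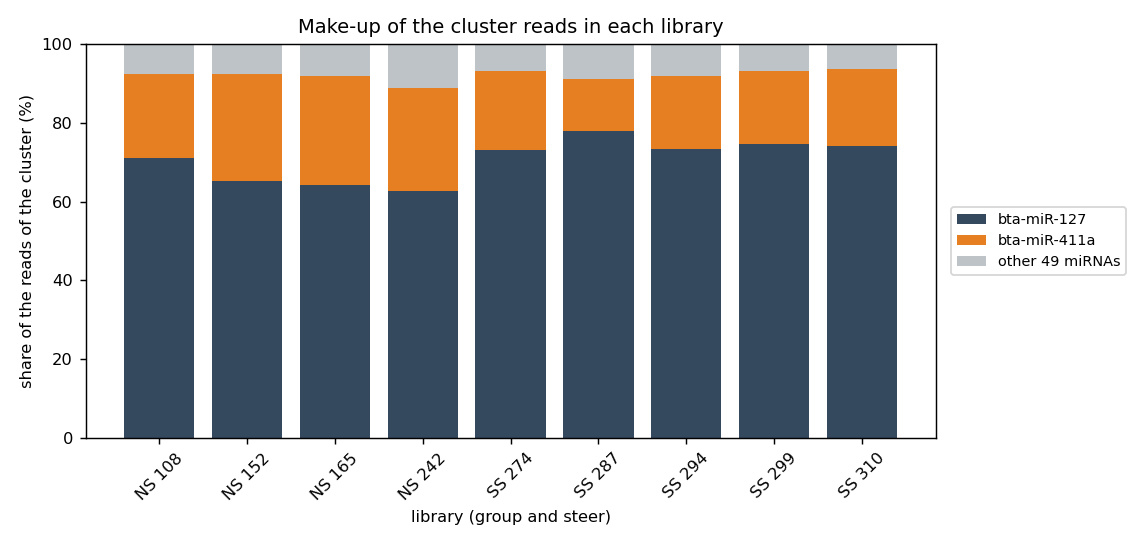
Share of the reads of the cluster (y axis, percent) taken by bta-miR-127, bta-miR-411a and the other 49 miRNAs in each library (x axis, group and steer). The share of bta-miR-127 is 62.6% to 71.2% in the NS libraries and 73.1% to 77.8% in the SS libraries.

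Per read of bta-miR-127 there were 0.298, 0.414, 0.434 and 0.417 reads of bta-miR-411a in NS and 0.275, 0.172, 0.253, 0.247 and 0.263 in SS, a mean of 0.242 ± 0.0404 for SS (SD, n = 5) against 0.391 ± 0.0627 for NS (SD, n = 4). All miRNAs were then tested relative to bta-miR-127, an analysis chosen after these values were seen. Of the other 15 tested cluster miRNAs, 13 were lower in SS on this scale, beside 174 of 244 miRNAs (71.3%). In 2 of the 15, bta-miR-411a (log2 difference -0.69) and bta-miR-493 (-0.96), every SS library was below every NS library, beside 3 of 244 (1.23%). None of the 15 was called (0 of 244, 0%), with adjusted p values from 0.595 upward in limma, and bta-miR-493 and bta-miR-665 were lower at an unadjusted p under 0.05, beside 15 of 244 (6.15%).

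The use of the 2 arms of a hairpin was likewise compared within libraries. The share of bta-miR-369-3p in the reads of its hairpin was 60.9%, 76.9%, 75.4% and 75.9% in NS and 62.3%, 80.0%, 81.8%, 73.6% and 66.2% in SS, from 22 to 83 reads per library. The groups overlapped widely (SS minus NS 0.507 percentage points, two-sided exact permutation p = 0.905, adjusted over 2 hairpins p = 0.905). The share of bta-miR-411c-5p was 90.9%, 96.7%, 96.3% and 93.8% in NS and 85.0%, 85.3%, 92.3%, 92.6% and 89.6% in SS, from 11 to 68 reads per library. NS steer 108, with 11 reads, lay inside the SS range. The difference of -5.46 percentage points did not pass the test (two-sided exact permutation p = 0.0635, adjusted p = 0.127).

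NS steer 242 was the highest library for 14 of the 16 tested miRNAs, with bta-miR-379 and bta-miR-409a as exceptions, and for 51.4% of all 245. Relative to the mean of the other NS libraries it had 1.89-fold as much bta-miR-127, 2.16-fold as much bta-miR-411a and 6.23-fold as much bta-miR-136, but 0.600-fold as much bta-miR-379 and 0.541-fold as much bta-miR-409a. The median over the 16 was 2.86-fold and that over all 245 was 1.79-fold. SS steer 310 was the lowest library for 8 of the 16 and for 55.5% of all 245.

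Lists of cell type miRNAs, summed per library, were set beside the cluster. The mesenchymal list held the miR-199 and miR-214 miRNAs, 5 of 5 in every library. Over all libraries, 45015 reads were given for bta-miR-199c beside 45053 for bta-miR-199a-3p, with almost the same CPM in each library. How reads that match several miRNAs were assigned is not stated. The sum of this list, also used for rho below, may therefore count the same reads more than once. It spanned 5246 to 20637 CPM over the NS libraries and 2152 to 6188 CPM over the SS libraries, with NS steer 242 highest. The leukocyte list also had its highest value in NS steer 242, with 3268 to 41936 CPM over NS against 383 to 16045 CPM over SS. So did the erythrocyte list, with 269 to 3034 CPM over NS against 278 to 661 CPM over SS. The smooth muscle list spanned 306219 to 627891 CPM over NS against 222069 to 736839 CPM over SS, and the intestinal epithelium list 23562 to 123345 CPM over NS against 4144 to 396231 CPM over SS. The neuronal list (9 entries) spanned 115 to 255 CPM over NS against 38.3 to 259 CPM over SS. Its defining miRNA, bta-miR-124, had 29 reads in all and was at 0 in NS steers 108 and 242. These were the libraries with the fewest reads, where a value of 0 allowed up to 4.61 and 3.35 CPM. The endothelium list (both arms of bta-miR-126) spanned 4756 to 14094 CPM over NS against 3311 to 8279 CPM over SS, and bta-miR-205, a miRNA of squamous epithelium, 2.23 to 187 CPM over NS against 0.158 to 34.7 CPM over SS. The part of these cell types in the values of the cluster was not tested, and in whole tissue fewer cells of a type and less RNA per cell cannot be told apart.

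Over the 9 libraries, Spearman's rho with the summed CPM of the cluster was 0.77 for 5 miRNAs of other imprinted loci, 0.67 for the mesenchymal list, 0.65 for the erythrocyte list, 0.45 for bta-miR-205, 0.33 for the leukocyte list, 0.30 for the neuronal list, 0.17 for the endothelium list, -0.13 for the intestinal epithelium list and -0.17 for the smooth muscle list. Most reads of the 5 were those of bta-miR-335 (455) and bta-miR-296-3p (464), and bta-miR-296-3p alone had rho 0.78. The single miRNAs outside the cluster most like its summed CPM were bta-miR-152 and bta-miR-3431, each with rho 0.80 over 9 libraries. In NS, bta-miR-152 stood at 171, 202, 167 and 216 CPM, and in SS at 183, 195, 142, 220 and 149 CPM, a narrower range than that of the cluster. These values share the library total, and rho is given as a description only.

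Among themselves the 16 miRNAs had a median pairwise rho of 0.67 over 9 libraries (120 pairs), beside 0.47 for all pairs of the 245. With TMM factors the medians were 0.38 and 0, and without NS steer 242 they were 0.52 and 0.43. As deposited, the closest pairs were bta-miR-154c with bta-miR-493 and bta-miR-369-3p with bta-miR-380-3p, both with rho 0.95 (0.83 and 0.45 with TMM factors). With TMM factors the closest pair was bta-miR-411a with bta-miR-432, with rho 0.88. On the deposited scale bta-miR-379 and bta-miR-409a again stood apart, with a median rho to the other members of -0.22 and -0.28. With TMM factors these medians were -0.07 and 0, but single pairs differed widely. Their rho with bta-miR-127 was then 0.63 and 0.73, and with bta-miR-493 it was -0.37 and -0.38. Between bta-miR-379 and bta-miR-409a rho was 0.10, and 0.58 with TMM factors. Without both, the median of the 91 remaining pairs was 0.73 (0.47 with TMM factors).

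**Figure D5:**
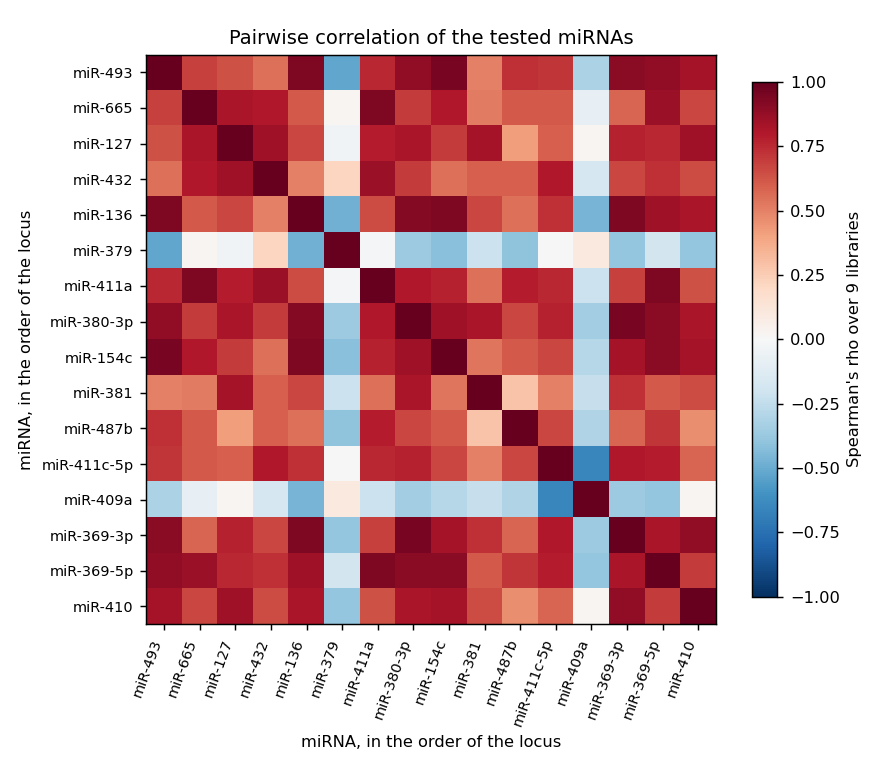
Spearman's rho over the 9 libraries between each pair of the 16 tested miRNAs, both axes in the order of the locus, with colour from -1 (blue) to 1 (red). The rows of bta-miR-379 and bta-miR-409a are pale or blue, with median rho -0.22 and -0.28, and most other pairs are red.

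Several of these values depended on the scaling. Adjacent in the locus, bta-miR-379 and bta-miR-411a had rho -0.02 as deposited and 0.50 with TMM factors. The 2 arms of the miR-369 hairpin had rho 0.82 as deposited and 0.20 with TMM factors. For bta-miR-127 and bta-miR-411a, from the 2 groups of hairpins, rho was 0.78 and 0.72.

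For comparison, 5 miRNAs of other imprinted loci were in the data, and 2 of them were tested. In human and mouse miR-335 lies in an intron of the imprinted MEST gene. In NS, bta-miR-335 had 18.4, 46.7, 34.5 and 93.7 CPM, and in SS 12.6, 8.85, 10.8, 12.5 and 8.87 CPM. All SS libraries were below all NS libraries, with a log2 difference of -1.86 (SE 0.50, adjusted p = 0.297 in limma), lower than that of any tested miRNA of the DLK1-DIO3 cluster. For bta-miR-296-3p, whose mouse counterpart lies in the imprinted Gnas region, the log2 difference was -1.26 (SE 0.54, adjusted p = 0.297 in limma).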

How the data were processed

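Per the labels, small RNA of whole rectal tissue from 5 SS and 4 NS steers was sequenced, 1 library per animal, from RNA of 100 mg of tissue frozen within 10 min. The authors assigned reads to miRBase miRNAs. The submitters' processing notes name Bowtie and edgeR, and neither versions nor a genome build were given in the sources used here. Deposited values, called CPM by the authors, were a read-based signal scaled to each library. The column sums exceeded the library total by 2.49% to 8.94%, and 100% of values were whole reads (tolerance 0.001 reads), from which totals were recovered. All 9 columns were used.

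The list of cluster miRNAs and all other lists were chosen with earlier results of these data known. miRNAs with at least 5 CPM in at least 4 libraries (245 of 515) were compared as log2(CPM + 1), which understates changes of low miRNAs, by limma 3.58.1 under R 4.3.3, variance prior trended, with Benjamini-Hochberg adjustment, and called below an adjusted p of 0.1 if the log2 difference exceeded 1 in size. p-values measure the spread between animals. edgeR 4.0.16 and DESeq2 1.42.0 on the recovered reads, TMM, median-of-ratios and quantile scaling, a total without bta-miR-143, other pseudocounts and filters, and leaving out libraries were alternatives. Arm shares were compared by exact permutation. Intervals and the limit of 3 reads cover counting error only, since reads carry no molecular identifiers. Named were all tested cluster miRNAs, the 5 most abundant under the filter, hairpins with 2 arms and the 2 outside miRNAs most like the summed cluster. bta-miR-431, bta-miR-433, bta-miR-656, bta-miR-412 and bta-miR-134 were named after their values were seen. The fits were tested on simulated data.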

Additional observations from a re-analysis of the deposited data

Results flagged for a closer look

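Gaps between a library and its group were measured on CPM or percent, not on log2 values as in the tests. Whether chance gives about 1 in 20 on these scales was not checked, so no excess over chance is claimed. In 9 of the 44 groups of 4 or 5 libraries examined, a library stood apart from the others. Most were NS steer 242, which had 162 CPM of bta-miR-136 (other NS 18.6 to 40.0), 104 CPM of bta-miR-154c (23.7 to 36.9), 70.3 CPM of bta-miR-369-3p (18.6 to 21.5), 222 CPM of bta-miR-381 (39.7 to 69.2) and 56.9 CPM of bta-miR-487b (9.12 to 14.7). SS steer 287 was above the other SS for bta-miR-136, with 45.7 CPM (8.55 to 18.5), and for bta-miR-369-3p, with 23.6 CPM (8.08 to 12.2). In the same steer bta-miR-411a took 13.4% of the reads of the cluster (18.4% to 20.1% in the other SS). In NS steer 108 the share of bta-miR-369-3p in its hairpin was 60.9% (75.4% to 76.9% in the other NS). These miRNAs were measured in the same libraries, so their departures are not independent.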

How the results depend on the processing

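The direction of 12 of the 16 tested miRNAs held under all alternatives. The signs of the other 4 turned: bta-miR-127 to 0.29 (TMM), 0.30 (median-of-ratios), 0.40 (edgeR's quasi-likelihood and exact tests, and DESeq2) and 0.093 (without the 2 libraries of fewest reads); bta-miR-381 to 0.16, 0.17, 0.10 (quantile), 0.17, 0.17, 0.18 and 0.19; bta-miR-432 to 0.038, 0.038 and 0.031 in the count tests; bta-miR-379 to -0.020 without SS steer 299 (range -0.020 to 0.45) and -0.25 without the 2 libraries of fewest reads. The median log2 difference was -0.46 (TMM), -0.45 (median-of-ratios), -0.36 (quantile), -0.44 (no filter), -0.42, -0.41 and -0.41 (the count tests) and -0.54 (without the 2 libraries), and -1.32 to -0.69 leaving out 1 library. Relative to the median miRNA it was -0.53 to -0.15 leaving out 1 library. The number lower in SS was 43 of 51 without a filter and 30 of 34 at 1 CPM, and 14 to 15 of 16 leaving out 1 library. At an unadjusted p under 0.05, those lower numbered 1 (TMM, median-of-ratios, quasi-likelihood, DESeq2), 0 (quantile, exact test, without the 2 libraries), 3 (total without bta-miR-143), 2 (relative to bta-miR-127) and 1 to 9 leaving out 1 library (9 without NS steer 165), and those higher 1 (TMM, median-of-ratios, quantile, DESeq2, without the 2 libraries) and 0 to 1. Groups without overlap numbered 0 (TMM, median-of-ratios, quantile), 1 (filter of 10 CPM) and 3 to 7 (6 without NS steer 165, 7 without SS steer 287). Over all miRNAs 1 was called without a filter, 1 at 1 CPM, 1 in the exact test and 9 in DESeq2, and 0 leaving out any 1 library. The mean share of the library was 0.117% in SS and 0.252% in NS without bta-miR-127, and 1.20% and 1.37% without bta-miR-143. Leaving out 1 library it was 0.431% to 0.492% in SS and 0.580% to 0.833% in NS. Expected detection at the smallest depth was 29.4 in SS and 34.8 in NS. The arm share difference of miR-369 was -3.30 to 3.13 leaving out 1 library and that of miR-411c -6.63 to -4.47. The median pairwise rho was 0.38 with TMM factors and 0.52 to 0.75 leaving out 1 library. The cause was not tested for any of these changes. No paired analysis was possible because no steer number occurs in both groups. Most members had few reads, and depth limits the 35 under the filter most.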
